A study of Mus musculus with 9 samples.

Results

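The genes described here encode the translation initiation factors (eIFs), which bring the initiator tRNA, the small ribosomal subunit and the capped mRNA together at a start codon. They were taken by name, as every gene whose symbol begins with Eif and a digit from 1 to 6, leaving out the eIF2 kinases (Eif2ak genes) and the sex chromosome genes Eif2s3x and Eif2s3y. Only probe sets assigned to exactly 1 gene symbol were used; among several for a gene, 1 was chosen by its mean signal over the 9 arrays, the highest being kept. This gave 43 of the 19938 genes measured. That mean is no contrast between populations, but the family was selected on earlier results of these arrays, in which it was seen to change, so its differences are given as a description of the family beside the share of all genes called. Other initiation factor genes, among them the eIF2 alpha subunit gene and the eIF4G1 gene, are not analysed here.

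The samples were dendritic cell (DC) progenitors sorted by flow cytometry from bone marrow of pelvis, tibia and femur. Every population came from mice heterozygous for the Zbtb46-GFP allele, whose green fluorescence reports transcription of Zbtb46, a transcription factor of classical DCs. There were 3 arrays each of Zbtb46- CDPs (reporter-negative common DC progenitors), Zbtb46+ CDPs (reporter-positive common DC progenitors) and Pre-CD8 DCs (precursors of CD8 DCs). Age, treatment and sort gates are not in the labels. Nor do they tell whether the replicates came from different animals or pools, so p-values measure the spread between these arrays, which may be partly technical. Xist, given below, sets the donors of replicate 1 of both CDP groups apart from those of replicates 2 and 3.

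Initiation proceeds in steps that different complexes serve. eIF2 carries the initiator tRNA and is recharged with GTP by eIF2B, its exchange factor and the target of the integrated stress response. eIF3 is a large scaffold on the small subunit, and the eIF4 group recognises the cap, unwinds the mRNA and is held back by the eIF4E-binding proteins. Progenitors that grow and divide make much protein, and Myc is known to drive transcription of many of these genes.

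Values are log2 of the RMA signal (a background-corrected, normalized summary of a gene's probes), given as means ± SD with n = 3 arrays per population. Differences are later minus earlier population on this log2 scale, with the standard error (SE) from limma, a linear model fitted over all genes. A gene was called where its Benjamini-Hochberg adjusted p over all 19938 genes was under 0.05. A bulk array cannot tell fewer cells of a type from less RNA per cell. The precision is limited by the number of arrays. The signal of 41 members lay at or above the table's median gene level of 6.97, while Eif4a3l1 and Eif5a2 lay below it.

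The labels were checked against defining markers. Zbtb46 itself stood at 6.27, 6.92 and 6.41 in the Zbtb46- CDPs, at 7.50, 7.05 and 7.18 in the Zbtb46+ CDPs and at 7.60, 7.39 and 7.53 in the Pre-CD8 DCs (log2 signal, replicates 1 to 3). The progenitor receptor genes Flt3 and Kit were at 10.34 or above in every array. Other progenitor markers went down: Csf1r averaged 11.22, 10.31 and 7.56 and Cx3cr1 11.18, 10.84 and 9.79 in the populations in that order. Itgax of the same list rose, from 8.77 through 9.62 to 10.69. Of 10 marker genes of type 1 classical DCs, 5 were called higher in Zbtb46+ than in Zbtb46- CDPs and 0 lower. From Zbtb46+ CDPs to Pre-CD8 DCs 7 were called higher and 0 lower. Replicate 1 of both CDP groups stood apart. Xist, which female cells transcribe, was at 5.59 and 5.30 there against 11.85 to 12.29 in the other 7 arrays. Replicate 1 of both CDP groups thus read as male, and the other 7 arrays, with all Pre-CD8 DC arrays among them, as female. The part of sex in the results was not tested. The summed signal of 8 immediate early genes, listed as a check on handling, was 7306 and 10613.6 in replicate 1 of the Zbtb46- and Zbtb46+ CDPs. In their replicates 2 and 3 it was 4745.2 and 4681.7 (Zbtb46-) and 3941 and 3886.5 (Zbtb46+). In the Pre-CD8 DCs it ran from 6944.3 to 7186.5. The part of handling in the results was not tested. The neutrophil granule gene Ngp was at 10.48 and 12.36 in replicate 1 of both CDP groups against 5.39 to 8.54 in the others. The summed signal of 10 granulocyte markers ran from 27161.7 to 31789.4 in the Zbtb46- CDPs and from 979.7 to 1988.1 in the Pre-CD8 DCs. In the Zbtb46+ CDPs it was 32003.8 in replicate 1 and 7751.2 and 7718.4 in the others. Mpo, Prtn3, Ctsg and Elane, genes of primary granules, carried most of the sum in the CDP arrays other than Zbtb46+ CDP replicate 1. From Zbtb46- to Zbtb46+ CDPs 3 of the 10 genes fell, 6 were higher on average without a call, and the median difference was 0.14. Of the 10 genes 2 averaged below the median gene level and none was at 0, and its part in the results below was not tested. Where leaving out replicate 1 of both CDP groups, or of the Zbtb46+ CDPs alone, moved a member across the threshold, that is stated.

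Initiation factor transcripts were lower in Zbtb46+ CDPs than in Zbtb46- CDPs. Of the 43 genes, 19 fell and 1 rose, that is 44.2% and 2.33%, where 10.6% of all genes were called lower and 3.85% higher. Most members are well expressed, and among genes at or above the median level, fitted alone, 21.6% were called lower and 7.05% higher against 51.2% and 2.44% of the 41 members there. The arrays of the populations did not overlap for 28 members that were lower and 1 that was higher, as for 17.4% and 11.8% of all genes. The median difference was -0.36 over the members, 0.04 over all genes and -0.11 over the brighter genes. From Zbtb46+ CDPs to Pre-CD8 DCs 5 members rose and 0 fell (11.6% and 0%, against 4.76% and 1.86% of all genes), with a median of 0.22 against -0.03. No member passed an unadjusted p of 0.05 as lower at that step with limma, the only tool run, and 19 passed it as higher. Of all 19938 genes 1373 passed it as lower and 2425 as higher. The arrays did not overlap for 17 members, all higher, with 0 lower (12.6% and 10.3% of all genes), and among the brighter genes 14.6% of the members and 10.3% of all rose, 0% and 3.91% fell. Over the whole span, from Zbtb46- CDPs to Pre-CD8 DCs, 8 members were lower and 1 higher (18.6% and 2.33%, against 9.23% and 6.43% of all genes), with a median of -0.14. There 16 members were lower and 1 higher without overlap (19.2% and 14.4% of all genes), and among the brighter genes 19.5% of the members and 17.2% of all were called lower, 2.44% and 12.3% higher, so the share of members lower over the span was near that of other bright genes. The comparisons share arrays, so their differences are not independent of each other.

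The size of these counts depended on single arrays, while the direction of the median did not turn in any fit run. At the first step 9, 10 and 11 members were lower without Zbtb46- CDP replicate 3, Zbtb46- CDP replicate 1 and Zbtb46+ CDP replicate 2, and 27 without Zbtb46+ CDP replicate 1. After a further quantile normalization of the arrays 10 were lower and 1 higher, with 1572 of all genes lower and 1216 higher in place of 2105 and 768. At the second step 14 members rose without Zbtb46+ CDP replicate 1 and 4 without Zbtb46- CDP replicate 1. There 2 rose without Pre-CD8 DC replicate 2 or 3, and 3 without any one of the other 5 arrays. After quantile normalization 2 rose, with 749 of all genes higher and 654 lower in place of 949 and 370. Without replicate 1 of both CDP groups 19 members fell and 0 rose at the first step, 15 rose at the second, and 9 were lower and 1 higher over the span. The 10 genes added at the second step were Eif2b2, Eif2b4, Eif3d, Eif3f, Eif3h, Eif3l, Eif4e2, Eif4ebp1, Eif4ebp2 and Eif6, with differences between 0.26 (Eif4e2) and 0.47 (Eif2b4). With the replicate number as a block, 22 members fell at the first step, Eif3d, Eif3h and Eif4e2 being added, and 3 rose at the second. Over the span 5, 4 and 5 were lower without Zbtb46- CDP replicate 1, Zbtb46- CDP replicate 3 and Pre-CD8 DC replicate 3.

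**Figure D1:**
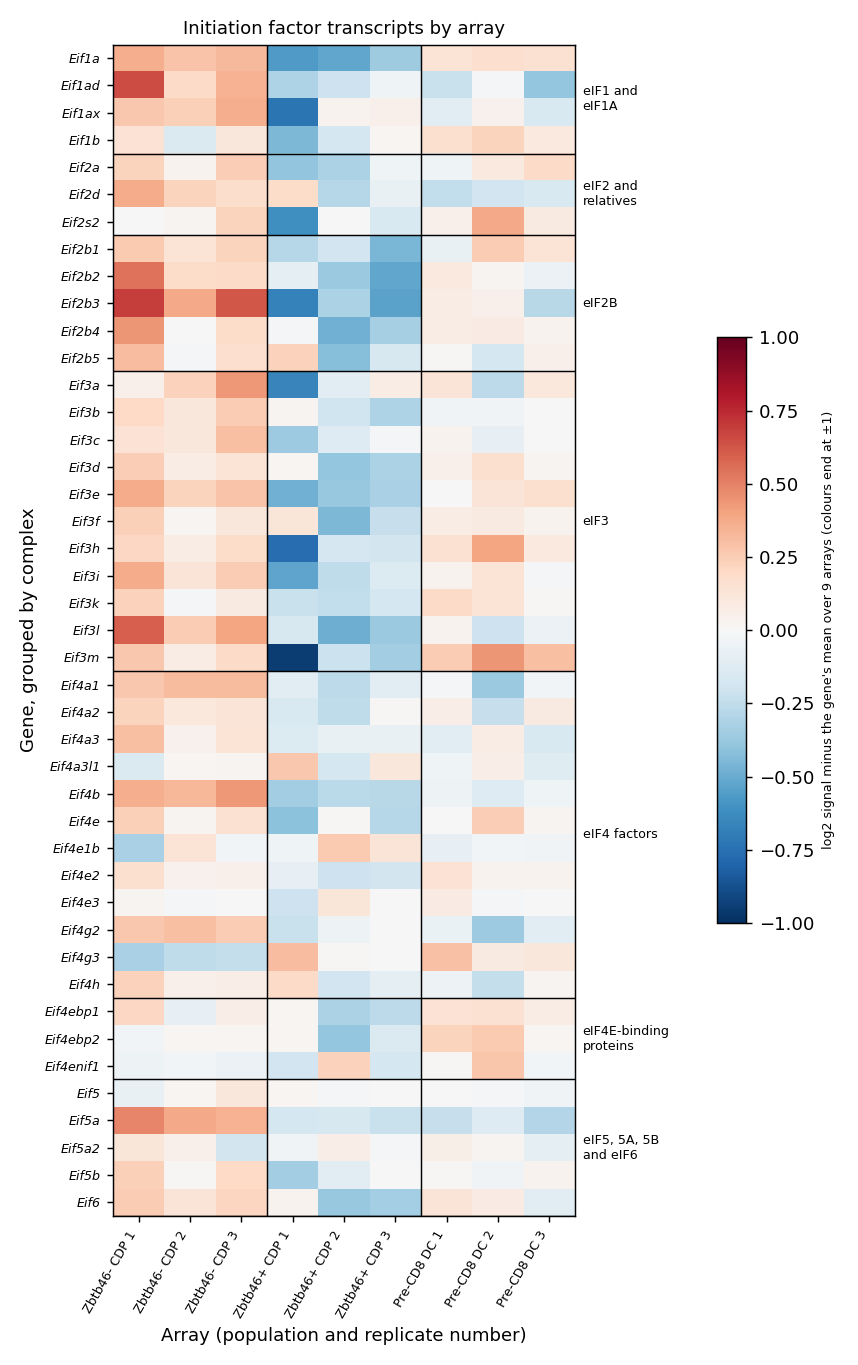
Heat map of the log2 signal of the 43 initiation factor genes (rows, by complex) in the 9 arrays (columns, by population and replicate number), each gene relative to its own mean over the 9 arrays. Red is above and blue below that mean; the columns of the Zbtb46+ CDPs are mostly blue in the eIF2B and eIF3 rows, where 4 of 5 and 7 of 11 genes fell at the first step, and replicate 1 of that group has the deepest blue in several rows.

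In 15 of the 43 genes (34.9%) all 3 Zbtb46+ CDP arrays lay below the 6 arrays of both other populations, as did 5.88% of all genes and 11.1% of those at or above the median level. These 15 were Eif1a, Eif2a, Eif2s2, Eif2b1, Eif2b2, Eif2b3, Eif2b4, Eif3d, Eif3e, Eif3h, Eif3i, Eif3k, Eif3m, Eif4b and Eif4e2. They hold 4 of the 5 eIF2B genes and 6 of the 11 eIF3 genes, but 2 of the 12 eIF4 factors and none of the eIF5, eIF5A, eIF5B and eIF6 genes. No member had all 3 Zbtb46+ CDP arrays above the others, as 3.71% of all genes had.

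**Figure D2:**
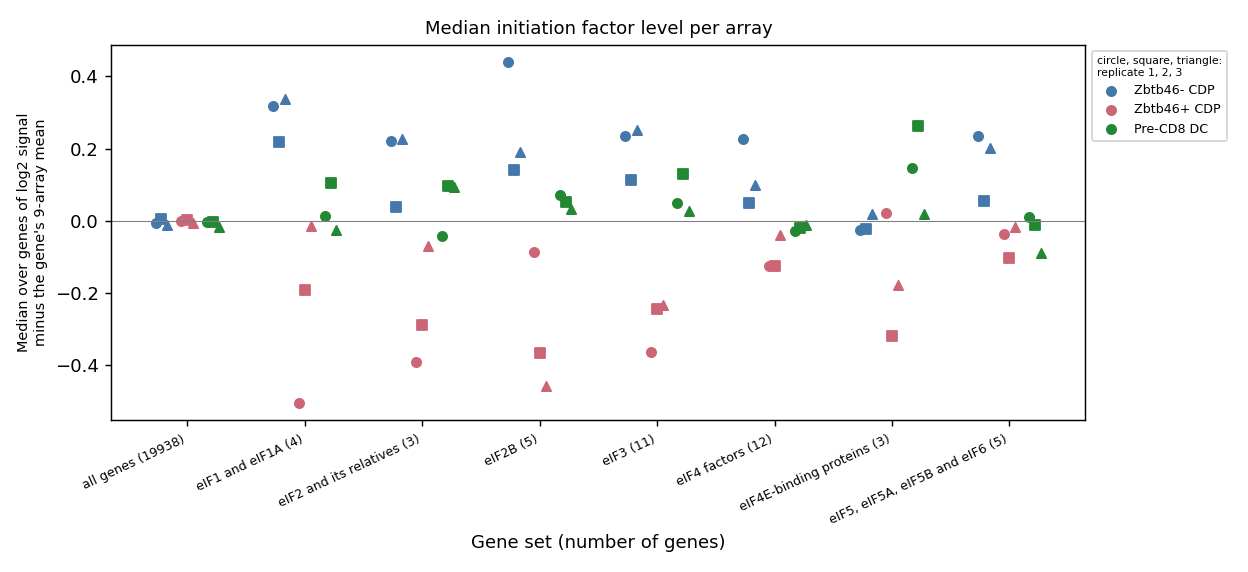
Median over the genes of each complex of the log2 signal minus the gene's 9-array mean (vertical axis), for each array, coloured by population with replicate 1, 2 and 3 as circle, square and triangle; the number of genes stands in brackets. For eIF3 the Zbtb46+ CDP arrays sit at -0.36, -0.25 and -0.23, below the Pre-CD8 DC arrays at 0.05, 0.13 and 0.03, while all genes together sit near 0 in every array.

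The group of eIF1 and eIF1A, the factors that open the small subunit for scanning, was given 4 genes. Eif1ad, an eIF1A domain gene, was placed there by its name. Of the 4 genes 2 fell at the first step, Eif1a and Eif1ad. That is 50%, against 10.6% of all genes and 21.6% of those at or above the median level. Eif1a, which encodes an eIF1A form, was at 8.44, 8.37 and 8.41 in the Zbtb46- CDPs, at 7.51, 7.56 and 7.72 in the Zbtb46+ CDPs and at 8.22, 8.24 and 8.23 in the Pre-CD8 DCs. The 3 populations did not overlap. Eif1a fell by 0.81 (SE 0.073, adjusted p = 0.000216, limma), a 1.75-fold change, and rose by 0.63 at the second step (SE 0.073, adjusted p = 0.00121), which left it 0.17 below its start without a call over the span (adjusted p = 0.176). Its calls held in each of the 18 other fits run and without replicate 1 of both CDP groups.

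Eif1ad, an eIF1A domain gene, did not return. Its arrays read 10.37, 9.91 and 10.06, then 9.40, 9.50 and 9.67, and then 9.49, 9.69 and 9.33. It fell by 0.59 at the first step (adjusted p = 0.0209) and was lower by 0.61 over the span (adjusted p = 0.0151), with a second step of -0.02 (95% interval -0.33 to 0.29). Without replicate 1 of both CDP groups its first difference was -0.40 and no longer called (adjusted p = 0.0611).

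The X-linked eIF1A gene Eif1ax showed how far 1 array could weigh. It was at 10.96, 10.93 and 11.06 in the Zbtb46- CDPs, at 9.96, 10.72 and 10.74 in the Zbtb46+ CDPs and at 10.57, 10.73 and 10.53 in the Pre-CD8 DCs, so Zbtb46+ CDP replicate 1 stood far below both its partners. No difference passed (adjusted p = 0.108 at the first step, 0.735 at the second and 0.286 over the span). Without that array Eif1ax was called lower at the first step (-0.25, adjusted p = 0.0498) and over the span (-0.37, adjusted p = 0.00603), and without replicate 1 of both CDP groups over the span (-0.38, adjusted p = 0.0121). Eif1b, which encodes a close relative of eIF1, ran from 8.39 to 9.07 over the 9 arrays and passed no test either.

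Of the eIF2 subunits, which carry the initiator tRNA, the gene of the beta subunit was measured. Eif2s2 read 11.10, 11.13 and 11.33 in the Zbtb46- CDPs, 10.49, 11.10 and 10.95 in the Zbtb46+ CDPs and 11.15, 11.48 and 11.20 in the Pre-CD8 DCs. All Zbtb46+ CDP arrays were below the rest, replicate 2 only slightly, and no comparison passed (adjusted p = 0.187, 0.169 and 0.852). Its other, dimmer probe set, tested beside all 21789 single probe sets, was lower at the first step (-0.50, adjusted p = 0.017).

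Eif2a and Eif2d encode separate proteins that can deliver the initiator tRNA without eIF2. Eif2a was at 9.30, 9.12 and 9.33, then at 8.69, 8.77 and 9.03, and then at 9.04, 9.18 and 9.27. It fell by 0.42 at the first step (SE 0.110, adjusted p = 0.0344), and its second step of 0.33 did not pass (adjusted p = 0.125). The first call was lost without replicate 1 of both CDP groups (-0.32, adjusted p = 0.105).

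Eif2d descended instead, from 9.02, 8.87 and 8.82 through 8.83, 8.36 and 8.57 to 8.40, 8.46 and 8.49. Only the span was called, lower by 0.45 (SE 0.116, adjusted p = 0.0279), and the Pre-CD8 DC arrays lay below all Zbtb46- CDP arrays. Without replicate 1 of both CDP groups it was lower by 0.39 (adjusted p = 0.0108), and its first difference of -0.38 then passed too (adjusted p = 0.0202).

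eIF2B, the exchange factor that reloads eIF2 with GTP, was the complex with the largest single change: 4 of its 5 genes fell at the first step and 1 rose at the second. The 80% that fell stood against 10.6% of all genes and 21.6% of the brighter ones. The 20% that rose stood against 4.76% and 10.3%. Eif2b3, its gamma subunit in the catalytic part, was at 8.70, 8.39 and 8.63 in the Zbtb46- CDPs, at 7.33, 7.69 and 7.47 in the Zbtb46+ CDPs and at 8.08, 8.06 and 7.73 in the Pre-CD8 DCs. It fell by 1.08 (SE 0.133, adjusted p = 0.000964), a 2.11-fold change and the largest of any member, in all 18 other fits run. The second step of 0.46 did not pass (adjusted p = 0.079), and Eif2b3 ended lower by 0.61 over the span (adjusted p = 0.0123).

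Eif2b2 encodes the beta subunit, of the regulatory part. Its arrays read 10.18, 9.82 and 9.83, then 9.56, 9.28 and 9.12, and then 9.74, 9.67 and 9.58. The populations followed each other without overlap, lowest in the Zbtb46+ CDPs, with a fall of 0.63 (SE 0.133, adjusted p = 0.0133) and later differences of 0.35 and -0.28 that did not pass (adjusted p = 0.185 and 0.24). Quantile normalization or fitting only the groups compared moved single calls of this complex to the other side of the threshold, the highest adjusted p of Eif2b2 being 0.0501 and that of Eif2b1 0.0554.

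Eif2b1, the alpha subunit through which phosphorylated eIF2 is sensed, was the member of the complex that passed at both steps. It was at 9.55, 9.43 and 9.52, then at 9.01, 9.10 and 8.84, and then at 9.22, 9.55 and 9.43. It fell by 0.52 (SE 0.103, adjusted p = 0.0102) and rose by 0.41 (adjusted p = 0.0474), the latter call being lost in 12 of the 18 other fits. Eif2b4 (delta) fell by 0.48 (adjusted p = 0.0477), from 8.34 ± 0.22 to 7.86 ± 0.24, and this call held in 2 of the 9 fits that left out an array. Eif2b5 (epsilon, the catalytic subunit) was at 8.69 ± 0.16, 8.42 ± 0.33 and 8.50 ± 0.12 and passed no test; the 95% interval of its first difference ran from -0.64 to 0.09, and without Zbtb46+ CDP replicate 1 that difference was -0.45 and called (adjusted p = 0.0276).

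eIF3, the scaffold that holds the small subunit open and recruits the mRNA, had all 11 measured genes lower on average in Zbtb46+ CDPs than in Zbtb46- CDPs. Of these 7 (63.6%) passed and fell, against 10.6% of all genes and 21.6% of those at or above the median level. All 11 had an unadjusted p under 0.05 as lower, as had 3643 of all 19938 genes. On average 8463 of all genes were lower. All 11 were higher on average in Pre-CD8 DCs than in Zbtb46+ CDPs, where 3 passed and rose. That is 27.3%, against 4.76% of all genes and 10.3% of the brighter ones. Over the span 1 of 11 was called, lower (9.09%, near the 9.23% of all genes), and the median difference was -0.19.

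Eif3e, a subunit that also contacts the eIF4 group, was among the steadiest. Its arrays read 11.44, 11.29 and 11.35 in the Zbtb46- CDPs, 10.59, 10.68 and 10.74 in the Zbtb46+ CDPs and 11.07, 11.20 and 11.23 in the Pre-CD8 DCs. The populations did not overlap. It fell by 0.69 (SE 0.078, adjusted p = 0.000613), rose by 0.49 (adjusted p = 0.00629) and was 0.19 lower over the span without a call (adjusted p = 0.152); the calls at both steps held in all 18 other fits.

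Eif3m had the largest rise of any member. It was at 10.72, 10.53 and 10.64, then at 9.50, 10.23 and 10.10, and then at 10.70, 10.89 and 10.75, with Zbtb46+ CDP replicate 1 far below every other array. It fell by 0.68 (SE 0.169, adjusted p = 0.0262) and rose by 0.83 (adjusted p = 0.0198). Without replicate 1 of both CDP groups the fall was 0.42 (adjusted p = 0.0161) and the rise 0.61 (adjusted p = 0.00334). A second probe set for this gene gave -0.65 and 0.80 (adjusted p = 0.0102 and 0.00767 over single probe sets).

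Eif3l, a peripheral subunit, fell and stayed lower. It read 10.58, 10.23 and 10.37, then 9.82, 9.49 and 9.61, and then 10.02, 9.78 and 9.93. It fell by 0.76 (SE 0.118, adjusted p = 0.00319) in all 18 other fits and was lower by 0.49 over the span (adjusted p = 0.021). The lowest Zbtb46- CDP array stood above every later array, and the later populations overlapped, with a second step of 0.27 that did not pass (adjusted p = 0.266).

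Eif3k and Eif3i also passed at the first step, with falls of 0.32 (adjusted p = 0.0319) and 0.56 (adjusted p = 0.01). Eif3k, the partner of Eif3l at the edge of the complex, returned from 11.39 ± 0.04 to 11.72 ± 0.09, a rise of 0.33 (adjusted p = 0.0485) that was called in 5 of the 18 other fits. Eif3b and Eif3c, subunits of the core, fell by 0.35 and 0.36 (adjusted p = 0.0355 and 0.0437), calls that held in 1 and 2 of the 9 fits that left out an array. Without replicate 1 of both CDP groups the first differences of Eif3k and Eif3c were -0.25 and -0.28 and not called (adjusted p = 0.0665 and 0.0588). Eif3h, Eif3d, Eif3a and Eif3f differed by -0.53, -0.38, -0.47 and -0.31 without passing (adjusted p = 0.0551, 0.0509, 0.144 and 0.156). For Eif3h and Eif3d the Zbtb46+ CDP arrays nonetheless lay below all others. Without Zbtb46+ CDP replicate 1, Eif3d, Eif3f and Eif3h were called lower (-0.50, -0.46 and -0.33, adjusted p = 0.0029, 0.00762 and 0.0364). Eif3b was then also lower over the span (-0.22, adjusted p = 0.0455).

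**Figure D3:**
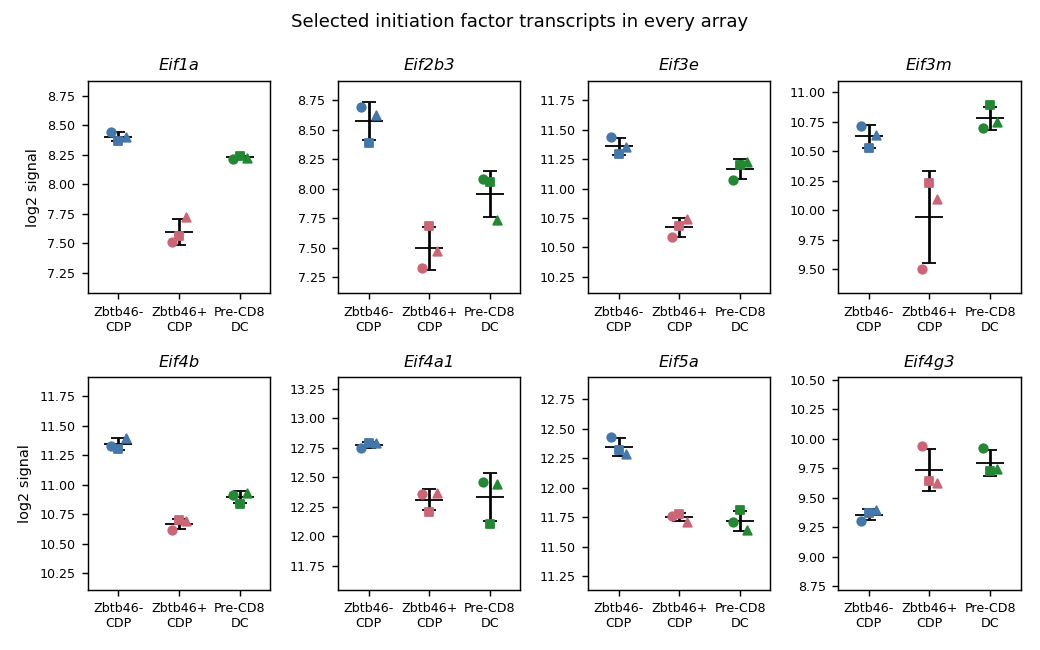
Log2 signal (vertical axis, spanning 1.8 units in each panel) of Eif1a, Eif2b3, Eif3e, Eif3m, Eif4b, Eif4a1, Eif5a and Eif4g3 in every array, with the mean (bar) and SD (whiskers) of the 3 arrays of each population; circles, squares and triangles are replicates 1, 2 and 3. Eif3e goes from 11.36 to 10.67 and back to 11.16, while Eif5a goes from 12.34 to 11.75 and stays at 11.72 and Eif4g3 rises from 9.36 to 9.74.

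The eIF4 factors bind the cap (eIF4E), bridge it to the ribosome (eIF4G) and unwind the leader of the mRNA (eIF4A with its helpers eIF4B and eIF4H). Of 12 genes 3 fell and 1 rose at the first step, none passed at the second, and the same numbers, 3 lower and 1 higher, were called over the span. The 25% called lower at the first step stood near the 21.6% of all genes at or above the median level, and the 8.33% called higher near their 7.05%. At the second step, where none passed, 3 genes had an unadjusted p under 0.05, all higher. Over the span 25% were called lower, against 9.23% of all genes and 17.2% of those at or above the median level. The 8.33% called higher there stood against 6.43% and 12.3%.

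Eif4b, which stimulates the helicase, fell with little spread. Its arrays read 11.33, 11.30 and 11.40 in the Zbtb46- CDPs, 10.62, 10.70 and 10.69 in the Zbtb46+ CDPs and 10.92, 10.84 and 10.93 in the Pre-CD8 DCs, with no overlap between populations. It fell by 0.68 (SE 0.065, adjusted p = 0.000292), and its second step of 0.22 did not pass (adjusted p = 0.0834). Over the span it was lower by 0.45 (adjusted p = 0.00136), and its calls at the first step and over the span held in all 18 other fits.

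Eif4a1, the main helicase of the cap complex, was at 12.74, 12.79 and 12.79, then at 12.36, 12.21 and 12.37, and then at 12.46, 12.10 and 12.44. All Zbtb46- CDP arrays stood above all later ones, and the later populations overlapped. It fell by 0.46 (SE 0.102, adjusted p = 0.0164) and was lower by 0.44 over the span (adjusted p = 0.0175), with a second step of 0.02 (95% interval -0.21 to 0.25). Its 2 dimmer probe sets gave first differences of -0.41 and -0.41 (adjusted p = 0.03 and 0.0312) but no call over the span (-0.33 and -0.32, adjusted p = 0.0676 and 0.0765).

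Eif4g2, which encodes DAP5, an eIF4G relative without the cap-binding arm, had 11.47, 11.51 and 11.46, then 10.98, 11.15 and 11.21, and then 11.14, 10.84 and 11.09. It fell by 0.37 (SE 0.095, adjusted p = 0.0331) and was lower by 0.46 over the span (adjusted p = 0.0103). The call over the span held in all 18 other fits, that of the first step in 12, and the latter was lost without replicate 1 of both CDP groups (-0.30, adjusted p = 0.0745).

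Eif4g3, a full-length eIF4G scaffold, was the one member called higher at the first step and over the span. It was at 9.30, 9.37 and 9.39 in the Zbtb46- CDPs, at 9.94, 9.64 and 9.62 in the Zbtb46+ CDPs and at 9.93, 9.72 and 9.75 in the Pre-CD8 DCs, all later arrays above all Zbtb46- CDP arrays. The rise was 0.38 (SE 0.100, adjusted p = 0.0354) at the first step and 0.44 (adjusted p = 0.0154) over the span. Without replicate 1 of both CDP groups the first rise was 0.25 and not called (adjusted p = 0.0696), and the span was 0.41 (adjusted p = 0.00687).

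The cap-binding genes passed no test with the probe set used. Eif4e was at 9.80 ± 0.11, 9.43 ± 0.22 and 9.75 ± 0.13, a first difference of -0.37 (adjusted p = 0.0782). Its probe sets disagreed: a dimmer one fell by 0.55 (adjusted p = 0.00295 over single probe sets) and another was higher by 0.23 without passing (adjusted p = 0.196). Eif4e2, a cap-binding relative that represses translation, differed by -0.24 (adjusted p = 0.0556), and by -0.28 with a call without Zbtb46+ CDP replicate 1 (adjusted p = 0.023). For Eif4e3 the first difference was -0.03, with a 95% interval from -0.23 to 0.17, and the oocyte form Eif4e1b differed by 0.19 (adjusted p = 0.331). The helicase paralogue Eif4a2, the exon junction helicase Eif4a3 and the eIF4B relative Eif4h differed by -0.28, -0.25 and -0.15 (adjusted p = 0.112, 0.102 and 0.421). Eif4a3l1, an Eif4a3-like gene, stayed at 5.32 ± 0.10, 5.42 ± 0.23 and 5.32 ± 0.09, below the median gene level.

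The eIF4E-binding proteins hold the cap factor back until mTORC1 phosphorylates them, and none of the 3 genes measured passed a test in any comparison. Unadjusted, 1 of them had a p under 0.05 as lower at the first step and 2 as higher at the second. Eif4ebp1 was at 8.91, 8.62 and 8.78, then at 8.73, 8.39 and 8.45, and then at 8.85, 8.86 and 8.78, with a second difference of 0.31 (adjusted p = 0.143). Eif4ebp2 was at 9.04, 9.08 and 9.08, then at 9.08, 8.67 and 8.92, and then at 9.29, 9.33 and 9.08, with a second difference of 0.34 (adjusted p = 0.119). In both genes Zbtb46+ CDP replicate 1 was the highest array of its population, and without Zbtb46+ CDP replicate 1 both passed as higher at the second step and Eif4ebp1 as lower at the first (-0.35, adjusted p = 0.0228). Eif4enif1, the transporter that takes eIF4E into the nucleus, was at 9.40, 9.42 and 9.39, then at 9.25, 9.68 and 9.27, and then at 9.46, 9.73 and 9.42. Its first difference was near 0, with a 95% interval from -0.29 to 0.28.

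Of the late factors, which join the large subunit or act on it, 2 of 5 genes fell at the first step, none passed at the second, with 0 of 5 under an unadjusted p of 0.05, and 1 was lower over the span. The 40% lower at the first step stood against 10.6% of all genes and 21.6% of the brighter ones. The 20% lower over the span was near the 17.2% of the brighter genes. Eif5a, the hypusine-carrying factor that helps ribosomes form difficult peptide bonds, read 12.42, 12.32 and 12.28 in the Zbtb46- CDPs, 11.76, 11.78 and 11.71 in the Zbtb46+ CDPs and 11.71, 11.81 and 11.64 in the Pre-CD8 DCs. It fell by 0.59 (SE 0.072, adjusted p = 0.000909) and kept that level, lower by 0.62 over the span (adjusted p = 0.000358), in all 18 other fits. A second, dimmer Eif5a probe set differed by only -0.13 and -0.24 (adjusted p = 0.399 and 0.167 over single probe sets). Both the size of the change and the call thus depended on the probe set read. Its paralogue Eif5a2 stayed at 6.20 ± 0.16, 6.21 ± 0.06 and 6.21 ± 0.08, below the median gene level.

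Eif6, which keeps the large subunit from joining too early, was at 10.15, 10.02 and 10.11, then at 9.93, 9.51 and 9.55, and then at 10.02, 9.98 and 9.78. It fell by 0.43 (SE 0.119, adjusted p = 0.0427), a call that held in 1 of the 9 fits that left out an array. Eif5b, the GTPase of subunit joining, read 9.15, 8.92 and 9.11, then 8.57, 8.81 and 8.91, and then 8.92, 8.88 and 8.95, and its first difference of -0.30 did not pass (adjusted p = 0.0819). Eif5, the GTPase activator of eIF2, had 10.59 ± 0.09, 10.57 ± 0.02 and 10.55 ± 0.01, and the 95% interval of its first difference ran from -0.17 to 0.13.

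**Figure D4:**
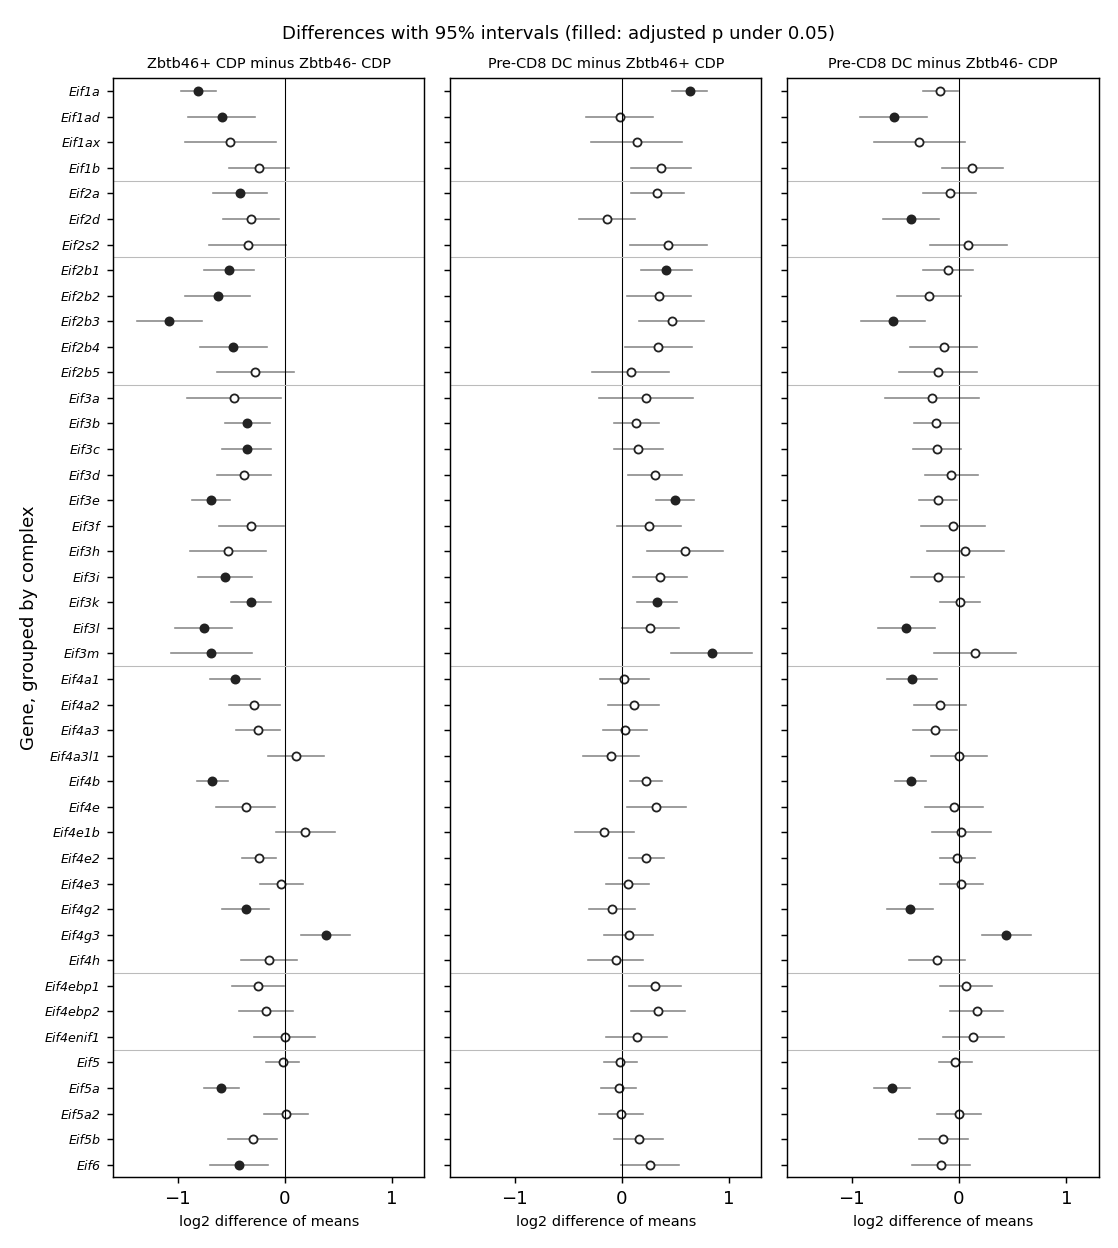
Log2 differences of group means (horizontal axis) of the 43 genes by complex, with 95% intervals from limma, for Zbtb46+ CDPs minus Zbtb46- CDPs, Pre-CD8 DCs minus Zbtb46+ CDPs and Pre-CD8 DCs minus Zbtb46- CDPs. Filled points had an adjusted p under 0.05 over all genes: 19 lower and 1 higher in the left panel, 5 higher in the middle, and 8 lower and 1 higher on the right.

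Promoters were looked at because so many members moved together. RefSeq windows of 300 bases, 250 before to 50 after each annotated start (GRCm38.p6), were matched by symbol for 33 of the 43 genes. The E-box CACGTG, the letters that Myc with Max is known to bind, the same on both strands, stood in a window of 9 of these 33 genes (27.3%), against 8.09% of all 27025 genes with a window and 7.15% of all 32851 windows. The ETS core CCGGAAG, or CTTCCGG on the other strand, stood in 14 of 33 (42.4%), against 9.93% of all genes, and TATAAA or TTTATA in 2 of 33 (6.06%), against 15.7%. The NRF1 letters GCGCATGCG stood in 2 of 33 (6.06%, against 1.95% of all genes), the YY1 motif in 0 of 33 (against 0.755%) and CCAAT in 13 of 33 (39.4%, against 41.1%), each searched on both strands; E-box and ETS letters share no base in the windows printed. The share over all genes counts silent genes too, so these are descriptions and not sites. Of the 9 genes with the E-box, Eif3k, Eif4a1 and Eif5a fell at the first step, while Eif1b, Eif3a, Eif3f, Eif4e, Eif4h and Eif5a2 did not pass. Of the 14 with the ETS letters, Eif1ad, Eif2b2, Eif2b4, Eif3c, Eif3l, Eif3m and Eif5a fell at the first step and the rest did not pass. A part of these motifs in the differences was not tested.

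Shown here are 2 promoters of genes that fell and came back (Eif3k and Eif3m), 2 of genes that fell and stayed lower (Eif4a1 and Eif3l) and that of the gene that rose at the first step (Eif4g3), each 5′ to 3′ on the strand of its gene, with the E-box and ETS letters in capitals. They lie at chr7:28981839-28982138 on the minus strand (Eif3k), chr2:105016978-105017277 on the minus strand (Eif3m), chr11:69672374-69672673 on the minus strand (Eif4a1), chr15:79074973-79075272 on the plus strand (Eif3l) and chr4:137993205-137993504 on the plus strand (Eif4g3).
Eif3k: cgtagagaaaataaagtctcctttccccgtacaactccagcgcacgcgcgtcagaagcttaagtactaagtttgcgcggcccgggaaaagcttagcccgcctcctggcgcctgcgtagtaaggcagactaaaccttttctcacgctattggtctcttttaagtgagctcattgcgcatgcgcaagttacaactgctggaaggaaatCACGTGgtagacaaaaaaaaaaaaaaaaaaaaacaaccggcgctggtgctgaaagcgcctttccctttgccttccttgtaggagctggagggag
Eif3m: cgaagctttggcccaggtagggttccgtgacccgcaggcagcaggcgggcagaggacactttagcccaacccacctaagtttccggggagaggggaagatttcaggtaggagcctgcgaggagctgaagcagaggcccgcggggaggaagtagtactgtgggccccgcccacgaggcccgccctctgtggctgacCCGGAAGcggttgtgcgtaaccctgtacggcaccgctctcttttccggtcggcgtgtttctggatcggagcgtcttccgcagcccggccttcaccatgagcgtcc
Eif4a1: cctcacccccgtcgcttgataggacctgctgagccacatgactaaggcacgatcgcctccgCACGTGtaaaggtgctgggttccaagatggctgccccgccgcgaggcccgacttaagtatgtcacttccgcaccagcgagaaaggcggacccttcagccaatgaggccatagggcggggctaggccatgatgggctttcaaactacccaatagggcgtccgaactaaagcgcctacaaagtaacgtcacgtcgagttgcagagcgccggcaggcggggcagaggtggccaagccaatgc
Eif3l: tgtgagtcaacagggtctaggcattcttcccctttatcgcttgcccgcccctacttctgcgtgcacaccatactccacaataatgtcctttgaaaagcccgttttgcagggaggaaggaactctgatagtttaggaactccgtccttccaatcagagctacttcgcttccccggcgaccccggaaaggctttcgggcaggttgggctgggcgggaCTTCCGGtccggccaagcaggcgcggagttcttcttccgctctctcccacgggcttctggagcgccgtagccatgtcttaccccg
Eif4g3: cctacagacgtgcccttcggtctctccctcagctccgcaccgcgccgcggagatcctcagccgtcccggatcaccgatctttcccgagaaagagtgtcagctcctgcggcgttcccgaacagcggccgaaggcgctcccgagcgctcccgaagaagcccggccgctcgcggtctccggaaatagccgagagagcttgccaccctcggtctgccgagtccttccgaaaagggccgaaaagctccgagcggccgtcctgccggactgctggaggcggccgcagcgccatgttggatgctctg
Eif3k carried the E-box 44 bases and Eif4a1 189 bases before the annotated start. Eif3m and Eif3l carried the ETS letters 55 and 35 bases before it, and the Eif4g3 window held neither. Eif4b, Eif2b1, Eif2a and Eif3b, whose windows are not shown, fell at the first step too, and their windows also held neither.

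The partners of these factors were read from lists chosen with earlier results known. Myc, the transcription factor, was at 11.53, 11.46 and 11.54 in the Zbtb46- CDPs, at 10.36, 9.72 and 9.65 in the Zbtb46+ CDPs and at 10.76, 10.62 and 10.68 in the Pre-CD8 DCs. Myc fell by 1.60 (adjusted p = 0.000388, limma) and rose by 0.78 (adjusted p = 0.0243). It was highest in the Zbtb46- CDPs and lowest in the Zbtb46+ CDPs with no overlap, as were Eif1a, Eif2b2, Eif2b3, Eif3e and Eif4b. The other members did not have this order without overlap. A part of Myc in the differences of the members was not tested. Max fell by 0.56 (adjusted p = 0.00398), Mycl rose by 0.99 (adjusted p = 0.0138), and Mycn passed no test. Of these 4 genes 2 fell and 1 rose at the first step (50% and 25%, against 10.6% and 3.85% of all genes).

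Of the eIF2 kinases, which phosphorylate eIF2 under stress and so block eIF2B, those activated by viral RNA and by uncharged tRNA moved. Eif2ak2 (PKR) was at 7.27, 7.42 and 7.62, then at 6.74, 6.84 and 6.30, and then at 7.44, 7.45 and 7.64, a fall of 0.81 (adjusted p = 0.0068) and a rise of 0.89 (adjusted p = 0.00839). Eif2ak4 (GCN2) was at 8.50, 8.40 and 8.40, then at 8.03, 7.90 and 8.08, and then at 8.53, 8.67 and 8.48, a fall of 0.43 (adjusted p = 0.00796) and a rise of 0.55 (adjusted p = 0.00447). In both genes the Zbtb46+ CDP arrays lay below all others. Eif2ak1 (HRI) and Eif2ak3 (PERK) differed by -0.18 and -0.04 at the first step (adjusted p = 0.212 and 0.9). Of the 12 genes of the kinase and stress response list 3 fell at the first step and 2 rose at the second. The 25% that fell stood against 10.6% of all genes and was near the 21.6% of those at or above the median level. The 16.7% that rose stood against 4.76% and 10.3%. The third gene that fell was Asns, by 0.83 (adjusted p = 0.0271, limma), with a span of -0.95 (adjusted p = 0.0131) and a signal below the median gene level on average. The stress factors Atf4 and Ddit3 passed in no comparison.

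Genes of other steps of translation were read against the 10.6% of all genes, and 21.6% of those at or above the median level, that were called lower at the first step. All 3 termination factors fell there, Gspt2 by 1.37, Etf1 by 0.90 and Gspt1 by 0.84 (adjusted p = 0.000246, 0.00434 and 0.00504). At the second step none of them rose and Gspt2 fell again, by 0.60 (adjusted p = 0.0255). Of 5 reinitiation and 40S factors 3 (60%) fell at the first step. At the second step Abce1 and Mcts2 rose (40%, against 4.76% of all genes and 10.3% of those at or above the median level). Mcts2 had not passed at the first step. The ribosome recycling factor Abce1 was at 10.45, 10.46 and 10.44, then at 9.42, 9.40 and 9.50, and then at 9.85, 9.80 and 9.86, a fall of 1.01 (adjusted p = 3.03e-05) and a rise of 0.40 (adjusted p = 0.006). Of 9 genes measured of the elongation list 3 (33.3%) fell at the first step, Eef1e1 by most of these, 0.79 (adjusted p = 0.00232). Eef1e1 was listed by its symbol, and its protein is a partner of the aminoacyl-tRNA synthetases, not an elongation factor. At the second step 1 rose and 1 fell: Eef1e1 rose by 1.04 (adjusted p = 0.00103) and the eEF2 kinase gene Eef2k fell by 0.80 (adjusted p = 0.02). The 11.1% of the list that rose stood against 4.76% of all genes and was near the 10.3% of those at or above the median level. The 11.1% that fell stood against 1.86% and 3.91%.

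Regulators of the cap complex had 5 of 11 measured genes (45.5%) lower and 0 higher at the first step. Of all genes 10.6% were called lower there, and of the brighter ones 21.6%. Pdcd4, which blocks the helicase eIF4A, fell by 1.56 (adjusted p = 0.000887), from 10.41, 10.09 and 10.36 to 8.70, 8.68 and 8.81, and was lower by 1.17 over the span (adjusted p = 0.0026). The helicase Ddx3x and the poly(A)-binding protein inhibitor Paip2 fell by 0.81 and 0.76 (adjusted p = 0.0136 and 0.00348). Mknk1, a kinase of eIF4E, rose by 0.55 at the second step (adjusted p = 0.0146). In the mTORC1 and S6 kinase list 0 of 10 measured genes passed at either step, with 0 under an unadjusted p of 0.05 by limma, and Ddit4 was higher over the span by 0.37 (adjusted p = 0.038).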

How the data were processed

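Transcripts of 9 arrays, 3 per population, were compared. RMA and Affymetrix Expression Console are named in the submitters' processing notes; versions, settings and genome build are not given in the sources used here. The labelling kit, per the labels' protocols, was one for very small amounts of total RNA. The authors deposited 1 RMA intensity per array for 28853 probe sets, on a linear scale from 7.45 to 20455.6, with array medians from 110.2 to 118.0. Log2 was taken and no other scaling applied. The platform annotation gave 21789 probe sets 1 symbol and 1621 several, and 5443 were not in it. The brightest one-symbol probe set of each gene gave 19938 genes, of which 999 had several. No filter on dim genes was applied.

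Group means were fitted to all 9 arrays with limma 3.58.1 (lmFit, eBayes) in R 4.3.3, with Benjamini-Hochberg adjustment over all genes at 0.05; the steps were tested on simulated data. Members, lists and alternatives were chosen with earlier results of these data known. Every member is named; values per array are given for the 3 of each complex with the largest difference and those called against the majority. Up to 3 called genes of each other list are named. The alternatives were a replicate block, dropping genes below the median level, averaging a gene's probe sets or testing each alone, centring arrays on their median, quantile normalization, array weights, robust moderation with a trend, fits of 2 groups, a threshold of 0.01, each array left out, and, added after seeing the data, replicate 1 of both CDP groups left out.

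Residuals of same-numbered arrays correlated by 0.51, 0.42 and 0.36 between the CDP groups, all above 0.1, so the number was taken to pair these, although Zbtb46- replicate 3 correlated as much with Zbtb46+ replicate 2 (0.38), and by -0.03 to 0.17 with the Pre-CD8 DCs, where it was not. The main fit held no block for the number, so its tests between the CDP groups did not use this pairing. With the block 22 members fell at the first step in place of 19. The figures were drawn with matplotlib 3.10.9 in Python 3.11.15.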

Additional observations from a re-analysis of the deposited data

How the results depend on the processing

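No member's called difference changed sign in any fit run. Leaving out 1 array at a time, the members lower at the first step numbered 9 to 27, those higher at the second step 2 to 14, and those lower over the span 4 to 10 (main counts 19, 5 and 8); the median differences ran from -0.386 to -0.333, from 0.19 to 0.244 and from -0.2 to -0.103. Quantile normalization gave 10 at the first step and 2 at the second, with medians of -0.262 and 0.12. Array weights gave 31, 15 and 17, fits of only the 2 groups compared 11 at the first step and 2 at the second, and a threshold of 0.01 gave 6, 2 and 2. With robust moderation and a trend 3 rose at the second step. With the replicate number as a block 22, 3 and 8 members were called; the second comparison is between groups that the numbers were not taken to pair. With replicate 1 of both CDP groups left out, 15 rose at the second step. The cause of these shifts was not tested. In the other fits the counts stayed within 1.5 times. Of 815 single differences recomputed per comparison, 89, 30 and 18 lost their call and 33, 34 and 15 gained one. At the first step 9 of the 20 calls held in every fit without 1 array, and 7 (Eif1a, Eif2b3, Eif3e, Eif3i, Eif3l, Eif4b and Eif5a) in all 18 other fits. Those fits read a gene's brightest probe set or the mean of its probe sets. The dimmer Eif5a probe set read alone was not called.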

Other observations

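Probe sets shared by several genes were left out, so Eif3j1, Eif3j2 and Eif4ebp3 could not be read on their own. The probe sets shared by Eif3j1 and Eif3j2, which encode the loosely bound eIF3 subunit, averaged 9.98 and 10.06 over the 9 arrays (log2 signal). The probe set shared by Ankhd1 and Eif4ebp3, the remaining eIF4E-binding protein gene, averaged 9.11. Those shared by Eif4a3 and Eif4a3l1 averaged 10.73 and 10.43, and each of these genes was read above from a probe set of its own.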
